A study of Ovis aries with 16 samples.

Results

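Among the 25197 Ensembl sheep gene IDs in a table of RNA-seq counts from fetal sheep amnion, 4 IDs were followed across all 16 libraries: ENSOARG00000001244, ENSOARG00000009963, ENSOARG00000007806 and ENSOARG00000013082. They were chosen by their measured values. ENSOARG00000001244 was taken because every treated library held less of it than every control library, ENSOARG00000009963 because every treated library held more, and ENSOARG00000007806 and ENSOARG00000013082 because every library of drained and refilled animals held more than every control library. The separations that chose them are therefore given as descriptions, without a test. The deposited table pairs no ID with a gene name, and 0 of the IDs matched the reference gene table used here, so these genes are given by ID, without a role, position or sequence.

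The amnion is the thin inner membrane of the fetal sac, a single layer of epithelium on a sheet of connective tissue. The fetus adds fluid to the sac mainly as urine, and fluid leaves by swallowing and by passage across the amnion into fetal vessels, the intramembranous route, to which transport in vesicles contributes. The study altered that traffic in pregnant sheep and asked how amnion transcripts respond.

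Every fetus was a singleton and carried bladder, amniotic and vascular catheters, the controls included, from about day 121 of a gestation of 145 to 150 days. Protocols lasted 2 days, with 4 animals a group and 1 library an animal. Controls (C) had no change of fluid, UD animals lost their urine without replacement, UDR animals lost it and received the same volume of lactated Ringer's solution, and IA animals had lactated Ringer's solution infused into the sac at 2 liters/day. A library total is the sum of its counts over all IDs and ranged from 12245460 to 30767263. A level is given in CPM, a gene's count divided by the library total and scaled to 1000000 counts. CPM does not account for gene length, so levels are compared between libraries and not between genes. In whole tissue, fewer cells of a type and less RNA per cell cannot be told apart. IA 2 and UDR 3 stood farthest from the other libraries over all genes tested, with median Spearman correlations of 0.77 and 0.844, against 0.85 to 0.957 for the rest. The symbol lists for amnion, mesenchyme, trophoblast, blood cells and vesicle genes found 0 of their symbols among the IDs, so neither the tissue label nor RNA of other tissues could be checked by markers.

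ENSOARG00000001244 was highest in the controls. Its level was 53.8 CPM in C 1, 20.6 in C 2, 20.04 in C 3 and 15.7 in C 4. In UD it was 5.39, 8.57, 8.34 and 11.2 CPM in animals 1 to 4. In UDR it was 8.39, 11.4, 3.04 and 12.2 CPM, and in IA 4.87, 1.91, 4.43 and 8.57 CPM. All 12 treated libraries lay below the lowest control, but by a narrow margin: C 4 was 1.29 times UDR 4, the highest treated library. Exact Poisson 95% intervals, which cover counting error only, overlapped at that edge: 13.9 to 17.7 CPM in C 4 and 10.3 to 14.3 in UDR 4. C 1 lay 2.62 times above the next library, and the lowest 2 values were those of IA 2 and UDR 3. By group median the order was C at 20.3 CPM, UDR at 9.90, UD at 8.45 and IA at 4.65. The ranges of neighbouring treated groups overlapped, and only the step from C to UDR was free of overlap. Of the 14148 genes with enough counts to be tested, 24 (0.17%) were lower in every treated than in every control library. With TMM factors they numbered 4, and with 1 library left out 25 to 172, most without C 1. That share is the rule's own yield, and nothing is read from it.

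The difference of ENSOARG00000001244 from C was of similar size in both drained groups. The fitted log2 fold change was -1.53 (SE 0.49) in UD minus C, -1.50 (SE 0.49) in UDR minus C and -2.36 (SE 0.51) in IA minus C, with the same 4 controls in each. Without C 1 these were -1.01, -0.98 and -1.83. The differences among treated groups had no part in choosing the gene and were tested. UDR minus UD was 0.03 on the log2 scale (95% interval -1.002 to 1.07, adjusted p = 0.985 by edgeR). IA minus UD was -0.82 (-1.87 to 0.22, adjusted p = 0.9999) and IA minus UDR was -0.85 (-1.90 to 0.19, adjusted p = 0.622). Whether the infused animals held less of this transcript than the drained ones was not resolved, and the intervals reached a difference as large as that fitted between UD and C.

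ENSOARG00000009963 was barely detected in the controls and spread over several orders of magnitude in the treated animals. The control libraries held 9, 27, 5 and 4 counts, or 0.67, 2.19, 0.388 and 0.236 CPM. An exact Poisson 95% interval, which covers counting error only, put C 4 between 0.0643 and 0.604 CPM. In UD the level was 50.9, 64.8, 3.93 and 153 CPM in animals 1 to 4. In UDR it was 11.3, 20.6, 12675 and 3.76 CPM, and in IA 3.48, 286 CPM, 15.9 and 4.84. In UDR 3 alone this ID took 325062 counts, 1.27% of the library, which was 44.2 times the level of the second library, IA 2. UD 4, UD 2 and UD 1 came next. At the other end, IA 1, UDR 4, UD 3 and IA 4 held 3.48 to 4.84 CPM, so each treated group had at least 1 animal within that low range. The highest control, C 2, stood 1.59 times below the lowest treated library. The Poisson interval of C 2, 1.45 to 3.19 CPM, overlapped those of IA 1 (2.62 to 4.53), UDR 4 (2.75 to 5.01) and UD 3 (2.99 to 5.08). By counting error alone, C 2 is thus not set apart from these treated libraries. The same rule was met by 3 genes (0.0212%), or by 12 with TMM factors and by 3 to 42 with 1 library left out, most without C 1, and nothing is read from that share.

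**Figure D1:**
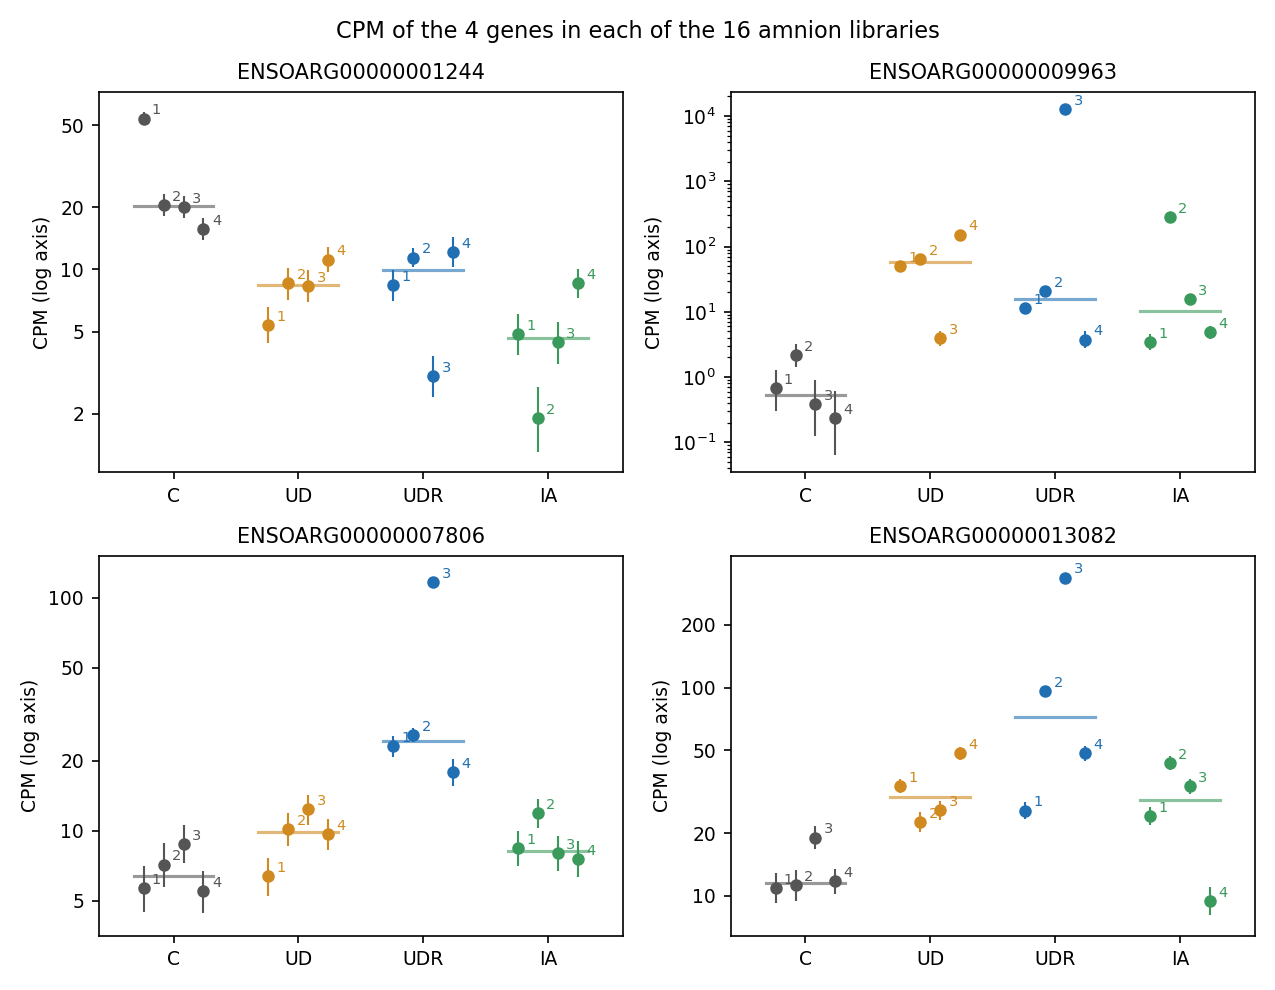
CPM of each gene (log axis) in each library, by group, with the animal's number beside each point, exact Poisson 95% intervals as bars and the group median as a line. ENSOARG00000001244 has a median of 20.3 CPM in C and of 4.65 to 9.90 in treated groups, while UDR 3 has the highest value of the other 3 genes, up to 12675 CPM for ENSOARG00000009963.

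The group order of ENSOARG00000009963 depended on how its values were averaged. By median, UD came first at 57.9 CPM, followed by UDR at 15.9, IA at 10.3 and C at 0.529. By mean, UDR came first at 3178 ± 6331 CPM, with IA at 77.7 ± 139 and UD at 68.1 ± 62.2, against 0.872 ± 0.899 in C (SD, n = 4). The SD exceeded the mean in C, UDR and IA. The ranges of the 3 treated groups overlapped throughout.

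Its fitted log2 fold change was 6.49 (SE 2.51) in UD minus C, 12.001 (SE 3.08) in UDR minus C and 6.74 (SE 2.54) in IA minus C. The value for UD ranged from 5.69 without UD 4 to 7.47 without C 2, that for UDR was 4.00 without UDR 3 and 12.99 without C 2, and that for IA was 3.37 without IA 2 and 7.73 without C 2. Among treated groups, UDR minus UD was 5.52 (95% interval 0.51 to 10.5, adjusted p = 0.536 by edgeR), although the means of log2 CPM differed by only 0.62. The sign turned without UDR 3, to -2.49. IA minus UDR was -5.26 (-10.2 to -0.31, adjusted p = 0.523) and became 2.74 without UDR 3. IA minus UD was 0.26 (-3.88 to 4.39, adjusted p = 0.9999) and became -3.14 without IA 2. No difference among the treated groups passed the test, and leaving out 1 animal turned the direction of each. DESeq2 gave this gene no adjusted p in these 3 comparisons. Its within-group SD of log2 CPM was 3.26, at or above that of 99.95% of the genes tested, where the median gene had 0.59.

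ENSOARG00000007806 was set apart by UDR. The controls held 5.66, 7.15, 8.78 and 5.48 CPM, and the UD libraries 6.36, 10.2, 12.3 and 9.65 CPM. The IA libraries held 8.41, 11.9, 8.02 and 7.58 CPM. The UDR libraries held 23.0, 25.7, 117 and 17.8 CPM, and the lowest of them was 1.44 times UD 3, the highest library of any other group. The rule asked only for UDR above C. That UDR also lay above every UD and IA library was seen afterwards, and it held for 10 of the 14148 genes (0.0707%), against 127 (0.898%) with every UDR library above every control. With 1 library left out the first count was 10 to 63, most without UDR 4, and the second 127 to 604, most without C 1. With TMM factors the second was 247. UDR 3 was 4.56 times the next library, but the order of the groups did not hang on it. By median UDR was at 24.3 CPM, UD at 9.91, IA at 8.21 and C at 6.40, and the ranges of UD, IA and C overlapped.

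For this gene the fitted log2 fold change of UDR was 2.92 over C (SE 0.53), 2.24 over UD (SE 0.52), and IA minus UDR was -2.35 (SE 0.52). Without UDR 3 these were 1.87, 1.20 and -1.31. These values include the libraries that chose the gene and carry no test. The comparisons without UDR were tested, of which UD minus C and IA minus C share the controls with the rule. The rule favours low controls, so the choice of the gene may raise both differences and their intervals. UD minus C was 0.67 (95% interval -0.40 to 1.75, adjusted p = 0.995 by edgeR), IA minus C was 0.56 (-0.51 to 1.63, adjusted p = 0.9998) and IA minus UD was -0.11 (-1.18 to 0.95, adjusted p = 0.9999). None passed. Outside UDR the 12 libraries kept within a narrow band: the highest was 12.3 CPM and the lowest 5.48.

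ENSOARG00000013082 lay above the controls in most of the treated animals. The controls held 10.9, 11.2, 19.0 and 11.7 CPM. The UDR libraries, on which the gene was chosen, held 25.7, 96.4, 338 and 48.3 CPM. The UD libraries held 33.8, 22.6, 25.8 and 48.3 CPM, all above the highest control. The IA libraries held 24.2, 43.5, 33.7 and 9.44 CPM: 3 lay above every control, while IA 4 was the lowest of all 16. In all, 11 of the 12 treated libraries exceeded every control, but the UDR libraries among them did so by the rule. How many of all genes reach that number was not counted, and nothing is read from it. The rule did not ask for UD above C, but it used the same controls, and 159 genes (1.12%) met that separation (269 with TMM factors, and 635 without C 1, 360 without UD 2 and 705 without UD 3). UDR 1, at 25.7 CPM, lay within the ranges of UD and IA, unlike any UDR value of ENSOARG00000007806. By median the order was UDR at 72.4 CPM, UD at 29.8, IA at 28.9 and C at 11.5. Every neighbouring pair in that order had overlapping ranges.

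The fitted log2 fold change of ENSOARG00000013082 was 3.41 (SE 0.72) in UDR minus C and 2.26 without UDR 3. UDR minus UD was 1.92 (SE 0.68) and IA minus UDR was -2.17 (SE 0.68), and without UDR 3 they were 0.77 and -1.02. Of the tested comparisons, UD minus C and IA minus C share the controls with the rule. The rule favours low controls, so the choice of the gene may raise both differences and their intervals. UD minus C was 1.49 (95% interval 0.06 to 2.93, adjusted p = 0.89 by edgeR). It ranged from 1.24 without UD 4 to 1.71 without C 3. IA minus C was 1.24 (-0.18 to 2.67, adjusted p = 0.9998), and 0.89 without IA 2. IA minus UD was -0.25 (-1.65 to 1.16, adjusted p = 0.9999). None passed after adjustment.

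**Figure D2:**
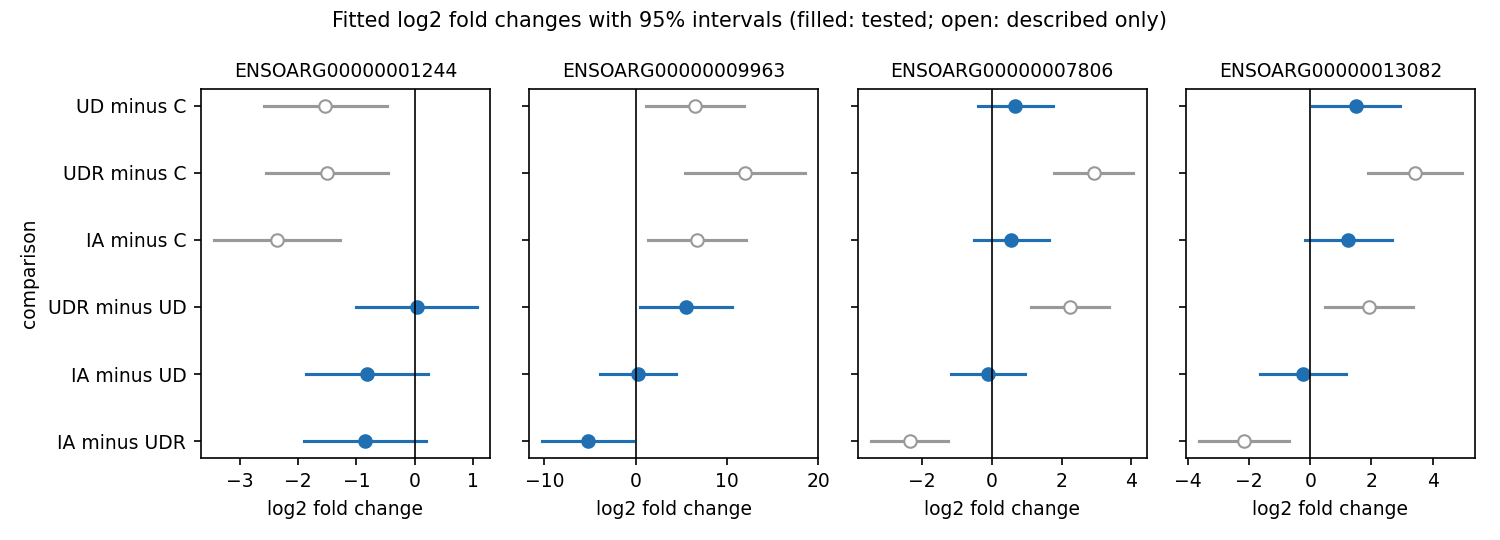
Fitted log2 fold change (point) and its 95% interval (line) for the 6 comparisons in each gene, with separate horizontal scales. Filled points are tested comparisons and open points are those that chose the gene or include UDR libraries chosen as high. All tested intervals except UD minus C of ENSOARG00000013082 and 2 comparisons with UDR of ENSOARG00000009963 include 0. UD minus C of ENSOARG00000013082 shares its controls with the rule that chose the gene.

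The fit behind these values covered 14148 genes, and edgeR called none of them in any of the 6 comparisons (0%), so the 12 tests of these genes shared their outcome with all others. Between 116 genes (IA minus UD) and 1283 genes (IA minus UDR) had an unadjusted p below 0.05. DESeq2 called 14 genes in UD minus C (0.0899%), 31 in UDR minus C (0.204%) and 5 in IA minus C (0.0246%). It called 166 in UDR minus UD (1.09%), 3 in IA minus UD (0.0148%) and 57 in IA minus UDR (0.375%). These shares are of the genes to which DESeq2 gave an adjusted p, and not of the 14148. They numbered 15573 in UD minus C, 20316 in IA minus C and IA minus UD, and 15190 in the remaining comparisons. Among the tested comparisons for which DESeq2 gave these genes an adjusted p, it called 0.

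The sequencing lane, which the column names give, overlapped with the groups. The controls, UD 1 and UD 2 were run in lane 1, and there ENSOARG00000001244 was at 5.39 and 8.57 CPM in UD against 15.7 to 53.8 in C. ENSOARG00000009963 was at 50.9 and 64.8 against 0.236 to 2.19, and ENSOARG00000013082 at 22.6 to 33.8 against 10.9 to 19.0. ENSOARG00000007806 overlapped there, at 6.36 and 10.2 CPM in UD against 5.48 to 8.78 in C. Within lane 2, ENSOARG00000007806 was at 17.8 to 114 CPM in UDR and at 9.65 and 12.3 in UD 3 and UD 4. Within lane 3 it was at 25.4 and 120 CPM in the second runs of UDR 2 and UDR 3, and at 7.58 to 11.9 in IA. ENSOARG00000013082 overlapped in lane 2, at 25.7 to 343 CPM in UDR and 25.8 and 48.3 in UD, and did not in lane 3, at 96.8 and 333 in UDR and 9.44 to 43.5 in IA. Of the UDR libraries, lane 3 held only UDR 2 and UDR 3, the highest for this gene. UDR 1, absent from lane 3, was at 25.7 CPM, within the IA range. ENSOARG00000001244 and ENSOARG00000009963 overlapped between the groups within lane 2 and within lane 3. Controls shared no lane with UDR or IA, so for these comparisons lane and group cannot be told apart.

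UDR 2 and UDR 3 were each sequenced in 2 lanes, which shows the technical noise of sequencing but not that of the animals or of library preparation. ENSOARG00000009963 in UDR 3 was at 12676 CPM in lane 2 and 12673 in lane 3. ENSOARG00000013082 in UDR 3 was at 343 and 333 CPM, and ENSOARG00000007806 at 114 and 120. ENSOARG00000001244 in the same library rested on 41 and 37 counts, or 3.42 and 2.71 CPM, with 95% Poisson intervals of 2.46 to 4.64 and 1.91 to 3.73. The extreme values of UDR 3 were thus present in both runs of that library. In the controls, ENSOARG00000009963 had so few counts that the Poisson interval of C 4 was about as wide, as a ratio, as the range between control animals. The interval of C 2, at 1.45 to 3.19 CPM, nevertheless lay above that of every other control, of which C 1 reached highest at 1.27. Relative to all genes tested, the dispersion of ENSOARG00000001244 was at percentile 60.5, that of ENSOARG00000007806 at 61.6, that of ENSOARG00000013082 at 73.7 and that of ENSOARG00000009963 at 99.3.

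Within groups the 4 genes tended to deviate together, but no pair passed the adjusted threshold. Since group differences chose them, each group's mean log2 CPM was first subtracted, and the 16 deviations were correlated for all 6 pairs, with values permuted within groups. The 3 genes that were higher in treated animals correlated positively with each other. ENSOARG00000009963 with ENSOARG00000007806 gave a Pearson r of 0.77 (permutation p = 0.0544) and a Spearman rho of 0.54 (permutation p = 0.0759). ENSOARG00000009963 with ENSOARG00000013082 gave an r of 0.77 (permutation p = 0.0156) and a rho of 0.66 (permutation p = 0.0162). ENSOARG00000007806 with ENSOARG00000013082 gave an r of 0.74 (permutation p = 0.0343) and a rho of 0.51 (permutation p = 0.078). ENSOARG00000001244, which was lower in treated animals, ran opposite to all 3. Its r was -0.65 with ENSOARG00000009963 (permutation p = 0.0381), with a rho of -0.50 (permutation p = 0.0704). With ENSOARG00000007806 the r was -0.61 (permutation p = 0.0473) and the rho -0.49 (permutation p = 0.0781), and with ENSOARG00000013082 they were -0.62 (permutation p = 0.0449) and -0.56 (permutation p = 0.0452). Adjusted over the 6 pairs, every Pearson p was 0.0544 and every Spearman p was 0.0781, so no pair passed 0.05. With TMM factors in the CPM, every adjusted permutation p was 0.0406.

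**Figure D3:**
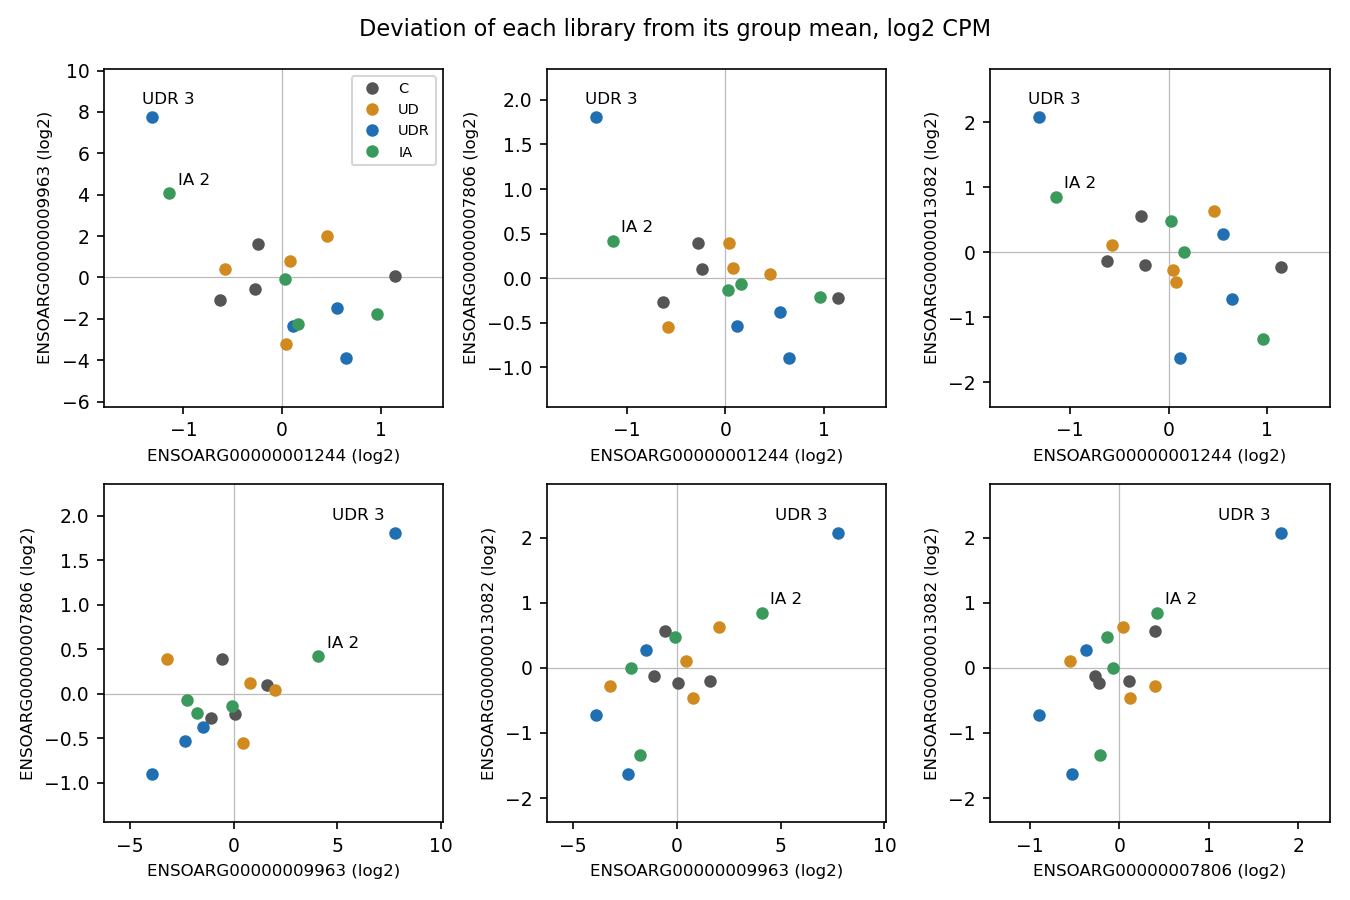
Deviation of each library from the mean of its group in log2 CPM, for the 6 pairs of genes (both axes in log2 units, 1 point per library, coloured by group). UDR 3, at -1.31 for ENSOARG00000001244 and 7.76, 1.81 and 2.08 for the other genes, sits in a corner of every panel, and IA 2 lies on the same side.

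The co-variation rested on UDR 3 and IA 2. UDR 3 deviated from the mean of UDR by -1.31 in ENSOARG00000001244, by 7.76 in ENSOARG00000009963, by 1.81 in ENSOARG00000007806 and by 2.08 in ENSOARG00000013082. IA 2 deviated from the mean of IA in the same 4 directions, by -1.14, 4.08, 0.42 and 0.85. In 5 of the 6 pairs these were the 2 libraries farthest from the median on the first axis. That axis was ENSOARG00000001244 or ENSOARG00000009963 in all 5. ENSOARG00000013082 was never on it, and in that gene UDR 1 deviated by -1.63, farther than IA 2. Without both, r was 0.05 for ENSOARG00000001244 with ENSOARG00000009963, 0.01 with ENSOARG00000007806 and -0.17 with ENSOARG00000013082. It was -0.10 for ENSOARG00000009963 with ENSOARG00000007806 and 0.31 with ENSOARG00000013082, and 0.17 for ENSOARG00000007806 with ENSOARG00000013082. In that last pair the 2 farthest were UDR 3 and UDR 4, without which r was 0.34. UDR 3 and IA 2 were also the libraries that stood farthest from the rest over all genes, and the part of that in these values was not tested.

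**Figure D4:**
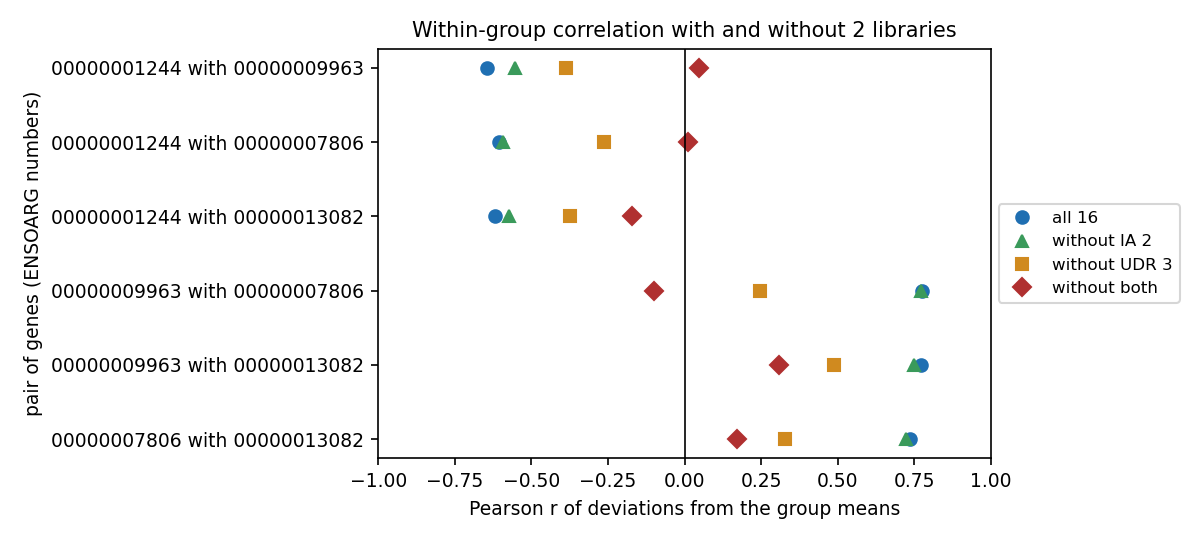
Pearson r of the deviations from group means (horizontal axis) for each pair of genes, over all 16 libraries, without IA 2, without UDR 3 and without both. Without both, the 6 values lie between -0.17 and 0.31, against -0.65 to 0.77 over all libraries.

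In UDR and in IA, 1 animal held an extreme for all 4 genes. UDR 3 was highest in UDR for the 3 genes that were higher in treated animals and lowest for ENSOARG00000001244, and IA 2 held the same places in IA. The other animals did not keep 1 order. In UD, animal 4 was highest for ENSOARG00000009963, ENSOARG00000013082 and ENSOARG00000001244, and animal 3 was lowest for ENSOARG00000009963 but highest for ENSOARG00000007806. In UDR, animal 1 was lowest for ENSOARG00000013082 and animal 4 for ENSOARG00000009963 and ENSOARG00000007806. In IA, animal 4 was highest for ENSOARG00000001244 and lowest for ENSOARG00000007806 and ENSOARG00000013082.

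Over all genes tested, likeness was measured as Pearson r of log2 CPM across the 16 libraries, as a description, since group differences that chose the 4 genes enter it. From ENSOARG00000013082, ENSOARG00000007806 ranked 6th of 14147 other genes (r = 0.86) and ENSOARG00000009963 20th (r = 0.81). From ENSOARG00000007806, ENSOARG00000013082 ranked 10th and ENSOARG00000009963 169th (r = 0.69). UDR 3, the highest library of these 3 genes, enters these ranks, which were not computed without it. From ENSOARG00000001244, ENSOARG00000009963 was near the opposite end, ranking 14138th (r = -0.71). The 3 genes most like each, which have no names here, reached r of 0.83 to 0.88 for ENSOARG00000001244, 0.91 to 0.94 for ENSOARG00000009963, 0.90 to 0.94 for ENSOARG00000007806 and 0.88 to 0.90 for ENSOARG00000013082. One gene was the second most like ENSOARG00000007806 and the most like ENSOARG00000013082. It had a median of 16.01 CPM in C, 22.1 in UD, 22.5 in IA and 32.6 in UDR, and 160 CPM in UDR 3. The 3 genes most like ENSOARG00000009963 were at 899, 1288 and 54.6 CPM in UDR 3, against control medians of 17.7, 0.238 and 0.62. Over the 14 libraries without UDR 3 and IA 2 the 12 values of r were 0.70 to 0.85, again as a description, since these genes were picked for their r over all 16.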

How the data were processed

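Amnion RNA of 16 fetal sheep was sequenced by the submitters from poly(A) libraries. The authors deposited raw read counts for each gene ID. HTSeq 0.6.1, FastQC 0.11.3 and DESeq2 are named per the submitters' processing notes. Aligner, build, annotation and strandedness: not given in the sources used here. How reads of overlapping or near-identical genes were assigned to IDs is therefore not known here. All 18 columns matched a library by title, and the 2 runs of UDR 2 and of UDR 3 were summed.

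Genes were kept by filterByExpr (14148 of 25197, including all 4 described). Counts were fitted in edgeR 4.0.16 (R 4.3.3) with TMM factors, all 16 libraries and group as the only term, using the two-sided quasi-likelihood F test with Benjamini-Hochberg adjustment over all genes and a threshold of 0.05. SE is the fold change over the square root of F. CPM used library totals, and log2 CPM a prior count of 2. Correlations used 100000 two-sided permutations. P-values measure the spread between these animals' libraries, which may be partly technical. Code was tested on simulated data.

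The 4 genes and all lists were chosen with earlier results of these data known. Named were these 4 genes and, without ID, the 3 most correlated with each. Symbol lists (8, from water channels to leukocytes) matched 0 symbols. Alternatives were RLE factors, library totals, 2 other filters, DESeq2 1.42.0, the replicate block, 2-group fits, single lanes, first runs and leaving out libraries. Leaving out UDR 3 and IA 2 together was added after seeing the data.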

Additional observations from a re-analysis of the deposited data

Results flagged for a closer look

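In 5 of 16 sets of 4 libraries (4 genes in 4 groups), 1 library lay far from the rest by Dixon's criterion at 95%. Chance gives about 0.8 sets if values are normally distributed. The criterion was applied to CPM and not to log2 CPM, where high values stand out less. The 5 sets are therefore not read as an excess over chance. The sets share libraries and are not independent. ENSOARG00000009963 was at 12675 CPM in UDR 3, with 20.6 CPM in the nearest UDR library. It was at 286 CPM in IA 2, with 15.9 in the nearest IA library. ENSOARG00000007806 was at 117 CPM in UDR 3, against 25.7 in UDR 2. Among the controls, ENSOARG00000001244 was at 53.8 CPM in C 1, against 20.6 in C 2, and ENSOARG00000013082 was at 19.0 CPM in C 3, against 11.7 in C 4. The value of ENSOARG00000013082 in UDR 3, at 338 CPM, did not meet the criterion, because UDR 2 was also high at 96.4 CPM.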

How the results depend on the processing

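With 4 animals a group, the spread between animals limits these comparisons. Counting error is large for ENSOARG00000009963 in the controls, at 4 to 27 counts. It also reaches the edges of the separations that chose ENSOARG00000001244 and ENSOARG00000009963, where Poisson intervals of control and treated libraries overlap. edgeR called 0 genes in all 6 comparisons under RLE factors, library totals, both filters, the replicate block, 2-group fits, first runs and each library left out. Within lane 3, IA minus UDR gave 1 called gene, none of the 4. DESeq2 called 14 (UD minus C), 31 (UDR minus C), 5 (IA minus C), 166 (UDR minus UD), 3 (IA minus UD) and 57 (IA minus UDR). With library totals the median log2 fold change of all genes was -0.18 in UD minus C, -0.12 in UDR minus C and -0.15 in IA minus C.

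Under CPM with TMM factors, genes lower in every treated library numbered 4 in place of 24, those higher 12 in place of 3, those higher in UDR than C 247 in place of 127 and those higher in UD than C 269 in place of 159. Each gene described here kept the separation it was chosen for under both scalings. Leaving out a library cannot undo a separation of ranges, so it is no test of these separations. It can only keep or raise the counts that follow. With 1 library left out the counts were 25 to 172, 3 to 42, 127 to 604 and 159 to 705, with 10 to 63 for UDR above every other library. The highest came without C 1 for the first 3, without UD 3 for the fourth and without UDR 4 for the last.

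No fold-change test of these genes passed under any alternative that gave an adjusted p. DESeq2 gave none for the 3 tests of ENSOARG00000009963, and only UD minus C, UDR minus UD and IA minus UDR could be fitted within 1 lane. With the replicate block, UD minus C of ENSOARG00000009963 was 8.02. Deviations from the group means had a median correlation of -0.008 between same-numbered libraries and of 0.019 between other libraries of different groups. Of the 24 same-numbered pairs, 10 correlated over 0.1, and 8 of 16 libraries correlated best with their own number. Whether the replicate numbers pair the animals was not tested. With the replicate block, UDR minus UD of ENSOARG00000001244 was -0.026 and IA minus UD of ENSOARG00000009963 was -2.55, both with the sign turned. Within lane 2 the former was -0.23. Without UDR 3 and IA 2 together, ENSOARG00000009963 gave -2.51 in UDR minus UD and -3.14 in IA minus UD, and the 6 correlations, in the order given below, were 0.047, 0.011, -0.17, -0.098, 0.31 and 0.17, of which 0.047, 0.011 and -0.098 had the sign turned. With 1 library left out, UDR minus UD ranged from -0.17 to 0.32 in ENSOARG00000001244 and from -2.49 to 6.31 in ENSOARG00000009963, where IA minus UDR ranged from -8.65 to 2.74 and IA minus UD from -3.14 to 1.05. IA minus UD ranged from -0.34 to 0.035 in ENSOARG00000007806 and from -0.62 to 0.051 in ENSOARG00000013082.

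With TMM factors the 6 within-group correlations were -0.66, -0.68, -0.63, 0.79, 0.78 and 0.76 (ENSOARG00000001244 with ENSOARG00000009963, ENSOARG00000007806 and ENSOARG00000013082, ENSOARG00000009963 with the latter 2, and the latter 2 together), each with a permutation adjusted p of 0.0406, below the threshold that the values by library totals missed. In the same order, leaving out 1 library gave -0.75 to -0.39, -0.72 to -0.26, -0.71 to -0.37, 0.25 to 0.90, 0.49 to 0.80 and 0.33 to 0.78, with the weakest value of each without UDR 3. Some passed without C 4, UD 1, UD 3 or UD 4, and the cause was not tested.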
